A study of Mus musculus with 12 samples.

Results

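The transcripts described here are 100 noncoding RNAs of mouse liver whose signal stood furthest above its starting level 24 h after partial hepatectomy, the surgical removal of 2/3 of the liver. They were chosen on measured values. Among the 5268 transcripts with an AK or uc0 identifier in the authors' table of log2 values, each was assigned to the time of its largest absolute change from 0 h. That time was 24 h for 1645 transcripts, 12 h for 2852 and 1.5 h for 771. Of the 1645, 782 were higher at 24 h than at 0 h, and the 100 with the highest change are the members. The mean at 24 h was taken over replicates 1 and 3, because the rule leaves out replicate 2.

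Because the rule used the group means of all 4 time points, the differences between time points given here describe what was chosen and are no evidence for it. The last members inside the limit were uc007ibl, uc007uxs and uc007zgc, with changes of 1.26, 1.25 and 1.25 in the authors' log2 values. The first outside were AK036758, uc007yrp and AK006956, at 1.24, 1.24 and 1.23. The limit of 100 therefore cuts through a continuous range of changes.

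The livers came from male C57BL/6 wild-type mice, 6 weeks old, and each of the time points (0, 1.5, 12 and 24 h after the operation) is represented by 3 arrays, from 3 mice per the labels. Sham operations are not among the groups, so loss of liver mass cannot be told apart from surgery, anaesthesia and time of day. RNA was taken from whole tissue, in which fewer cells of a type and less RNA per cell cannot be told apart.

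After partial hepatectomy the remaining hepatocytes, which are mostly out of the cell cycle, re-enter it and restore the mass of the organ. In the mouse the first hours are marked by immediate early and acute phase genes, and most hepatocytes replicate their DNA after the first day. Long noncoding RNAs are transcripts without a long open reading frame, and some act on chromatin, on transcription or on the stability of other RNAs. For most of those known only from cDNA catalogues no function is established.

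Of the members, 37 carry AK identifiers, which are those of cloned cDNA sequences, and 63 carry uc0 identifiers, which are those of the UCSC Genome Browser's gene set. None matched an entry of the RefSeq gene table used for names, and none shared its identifier with another probe. They are therefore given by identifier, and their noncoding status rests on the design of the array. All 100 were called well above background on all 12 arrays, as were the other transcripts of the authors' table, so no value is a bound. Transcripts that are too dim for that table at any time could not become members: 12975 AK and uc0 transcripts are on the array.

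Signals are given as log2 processed intensity after subtraction of the array's own 75th percentile, called the log2 level here. A level of 0 is as bright as that percentile, and levels of different probes are not compared because probes differ in brightness. On 11 arrays the 75th percentile of the signal lay between 444 and 601 intensity units, and on 24 h replicate 2 it was 6567. On that array 540 spots were marked as outliers, against 19 to 40 on the others. The arrays were read in 4 scans, per the file headers. The first held all 0 h arrays and 1.5 h replicate 1, and the second held 1.5 h replicates 2 and 3 with 12 h replicates 1 and 2. The third held 12 h replicate 3 with 24 h replicates 1 and 3, and 24 h replicate 2 was alone in the fourth. On the arrays of the second scan 82.0% to 85.4% of spots were well above background, against 62.8% to 72.4% on the others. No scan held arrays of both 0 h and 24 h. The difference between these times can be set free of scan only through the chain of times that share a scan (scan as a block in the model).

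The members were low and level at 0 and 1.5 h, intermediate at 12 h and high on the 24 h arrays that the rule used. Their median log2 level was -2.40, -2.08 and -1.88 on the 0 h arrays, and -2.03, -1.92 and -1.80 at 1.5 h. It was -1.39, -1.25 and -0.67 at 12 h. On 24 h replicates 1 and 3 it was -0.66 and -0.18. The 12 h replicate 3 array thus lay at the level of 24 h replicate 1, with which it was scanned, and above the other 12 h arrays. The median over all 5268 AK and uc0 transcripts lay between -1.57 and -1.11 on these 11 arrays and was -1.28 on 12 h replicate 3.

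In the model over 11 arrays the members' median log2 difference against 0 h was 0.15 for 1.5 h, 1.01 for 12 h and 1.57 for 24 h. The 24 h values ran from 1.14 to 3.72. Over all AK and uc0 transcripts of the table the medians were 0.18, 0.44 and 0.08. Past an adjusted p of 0.05 (limma, Benjamini-Hochberg over 31168 probes) were 84 members at 24 h against 0 h, all higher, where 10.3% of all probes were called higher. At 12 h against 0 h 62 members were called higher, with 32.1% of all probes, and at 1.5 h only uc009bzn, with 0.484%. For 24 h against 12 h 20 members were called higher, with 8.59% of all probes. No member was called lower in any of these comparisons, where 6.67%, 16.8%, 0.0866% and 7.12% of all probes were, in the same order. With all 12 arrays in the model 32 members were called higher at 24 h against 0 h (2.73% of all probes). With scan as a block, 1 member was called higher at 24 h against 0 h (0.176% of all probes), and the members' median difference was 0.92.

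**Figure D1:**
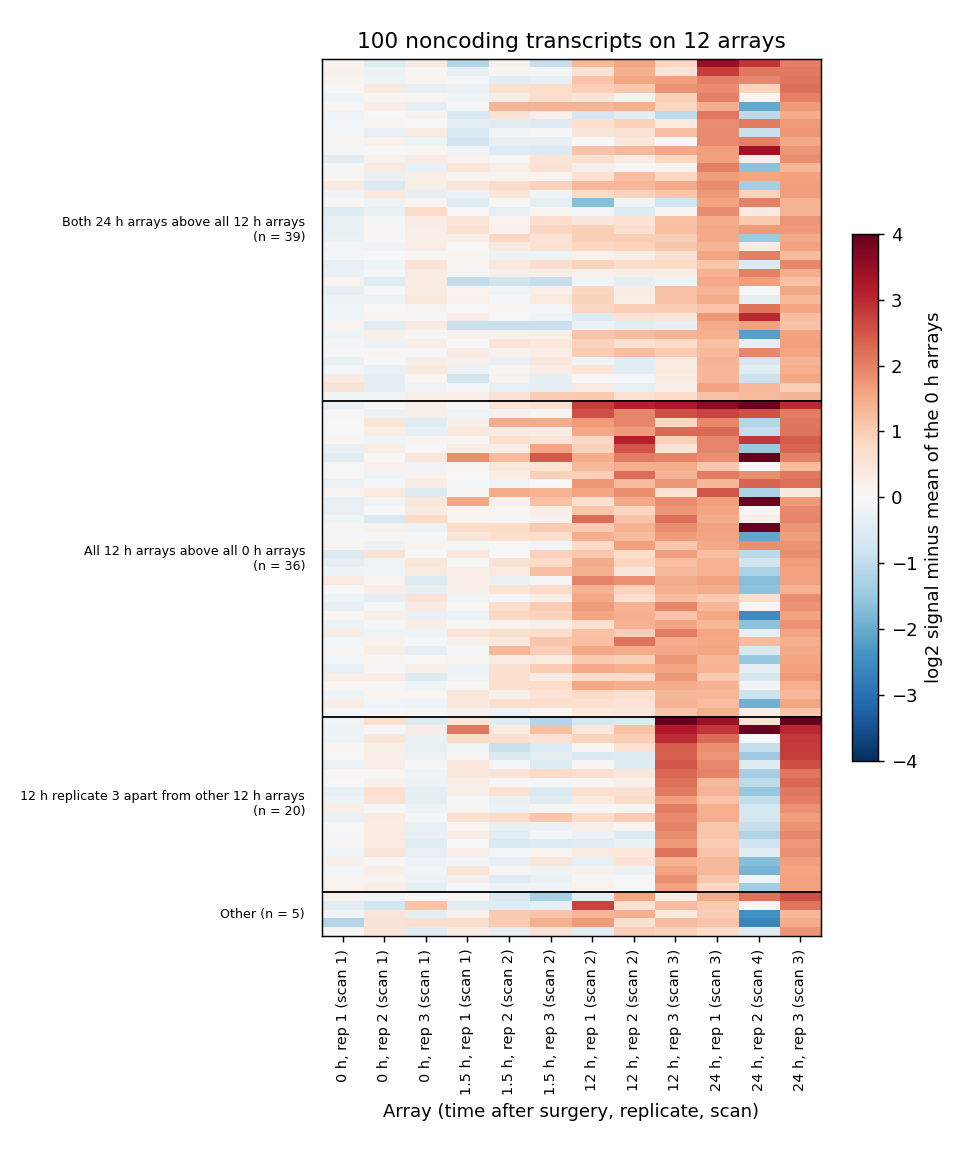
Log2 level of the 100 members (horizontal lines of the map) on the 12 arrays (columns, with time, replicate and scan), as the difference from the mean of the 0 h arrays; the colour scale stops at -4 and 4. In the third block from the top, 12 h replicate 3 is close in colour to 24 h replicates 1 and 3. There 12 h replicates 1 and 2 are lower and mostly near 0, and 24 h replicate 2 differs from the other 24 h arrays in most members.

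The members did not share 1 time course. They were sorted, after their values had been seen, by how the arrays were ordered. In 20 members 12 h replicate 3 lay more than 1 log2 unit above the mean of the other 12 h arrays. Of the remaining members, 39 had both 24 h arrays above all 12 h arrays, as did 16.5% of all AK and uc0 transcripts of the table. Another 36 had all 12 h arrays above all 0 h arrays without a further separation at 24 h, and 5 met none of these conditions. The 36 are termed level from 12 h for short, and whether they stayed level was not tested. Counted over all 100 members, whatever their group, 64 had all 12 h arrays above all 0 h arrays. So did 44.6% of the AK and uc0 transcripts (50 members and 36.5% in the authors' values). In 98 of the 100 members both 24 h arrays lay above all 0 h arrays (33.4%). These groups were cut from the same values, so they order the description and are no test.

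The 39 members that were highest at 24 h had a median log2 difference from 0 h of 1.52 at 24 h and 0.77 at 12 h. Against 0 h all 39 were called at 24 h and 23 at 12 h, and they include all 20 members called for 24 h against 12 h. Within the third scan, where arrays of both times were read together, the mean of 24 h replicates 1 and 3 lay above 12 h replicate 3 by 0.16 to 2.84 (median 0.82). With scan as a block the median 24 h difference against 0 h was 1.25, and none of the 39 turned negative. The 39 were picked with both 24 h arrays above 12 h replicate 3, so these values follow in part from the grouping.

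AK043229 lay at -1.68, -2.09 and -1.82 at 0 h, at -2.18, -1.80 and -1.94 at 1.5 h, at -1.26, -0.45 and -1.34 at 12 h, and at 0.90 and 0.20 on 24 h replicates 1 and 3. On 24 h replicate 2, which the rule did not use, it lay at 0.26. It was therefore flat until 1.5 h, slightly higher at 12 h, and separated at 24 h on each of the 3 arrays, with a difference of 2.41 ± 0.31 (SE) against 0 h, or 5.33-fold.

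For uc009hbb the 0 h levels were -0.07, -0.68 and 0.12, the 1.5 h levels -1.37, -0.05 and -1.14, and the 12 h levels 1.13, 1.36 and 0.62. It reached 3.26 and 1.82 on 24 h replicates 1 and 3 and 2.64 on replicate 2. Its 24 h level was 2.75 ± 0.49 above 0 h (6.73-fold), and the 24 h arrays themselves spread over more than 1 log2 unit. The 12 h arrays all lay above the 0 h arrays and below the 24 h arrays.

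Some members of this kind were not raised at 12 h. AK083198 had levels of -1.44, -1.30 and -1.16 at 0 h and of -1.91, -0.71 and -1.11 at 1.5 h. At 12 h all arrays were lower than at 0 h, at -1.97, -1.66 and -2.34, and 24 h replicates 1 and 3 then stood at 0.81 and 0.18. Its difference was -0.69 ± 0.31 at 12 h against 0 h and 2.49 ± 0.35 at 24 h against 12 h. The array left out, 24 h replicate 2, lay at -2.36 and did not share the high level. On this scale 69.7% of all AK and uc0 transcripts were below all 0 h arrays on that array. This limits the reading of each low level on it given below.

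AK050104 went the same way at 12 h, with levels of 3.12, 2.84 and 3.15 at 0 h, 2.54, 3.03 and 2.68 at 1.5 h and 1.32, 2.89 and 2.25 at 12 h. It lay at 4.62 and 4.42 on 24 h replicates 1 and 3 and at 5.06 on replicate 2, so all 24 h arrays were above all earlier ones. The 24 h difference was 1.49 ± 0.38 against 0 h and 2.37 ± 0.38 against 12 h.

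AK050225, among the 4 brightest members at 24 h, stood at 3.75, 3.12 and 3.95 at 0 h and was lower on each 1.5 h array, at 2.64, 2.81 and 2.70. It lay at 3.42, 3.21 and 3.40 at 12 h, at 5.11 and 4.79 on 24 h replicates 1 and 3, and at 5.27 on replicate 2. The 1.5 h difference was -0.89 ± 0.22 and the 24 h difference 1.34 ± 0.25 against 0 h. Its 3 arrays of 24 h did not overlap with any other array.

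The 12 h level of uc007mzc, at -2.87, -3.27 and -2.67, overlapped with its 0 h levels of -3.23, -3.04 and -1.99. On 24 h replicates 1 and 3 it was at -0.87 and -1.39, a difference of 1.62 ± 0.36 against 0 h, and on replicate 2 at -2.39, within the range at 0 h. AK003662 likewise had a 12 h difference near 0, 0.07 ± 0.26, and a 24 h difference of 1.43 ± 0.29 against 0 h. Its level on 24 h replicate 2 was -4.24, below the lowest 0 h array at -3.77, as were 69.7% of all AK and uc0 transcripts on this scale.

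AK009498 was the member called with scan as a block, and was singled out after its values were seen. It lay at -1.76, -1.53 and -1.64 at 0 h, at -2.02, -2.10 and -2.16 at 1.5 h, at -0.98, -0.71 and -1.26 at 12 h, and at 0.21 and 0.07 on 24 h replicates 1 and 3. On 24 h replicate 2 it lay at 0.43. Arrays of a time point were close together and those of 0, 1.5, 12 and 24 h did not overlap. The 24 h difference against 0 h was 1.78 ± 0.20 without and 2.31 ± 0.34 with the scan block.

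**Figure D2:**
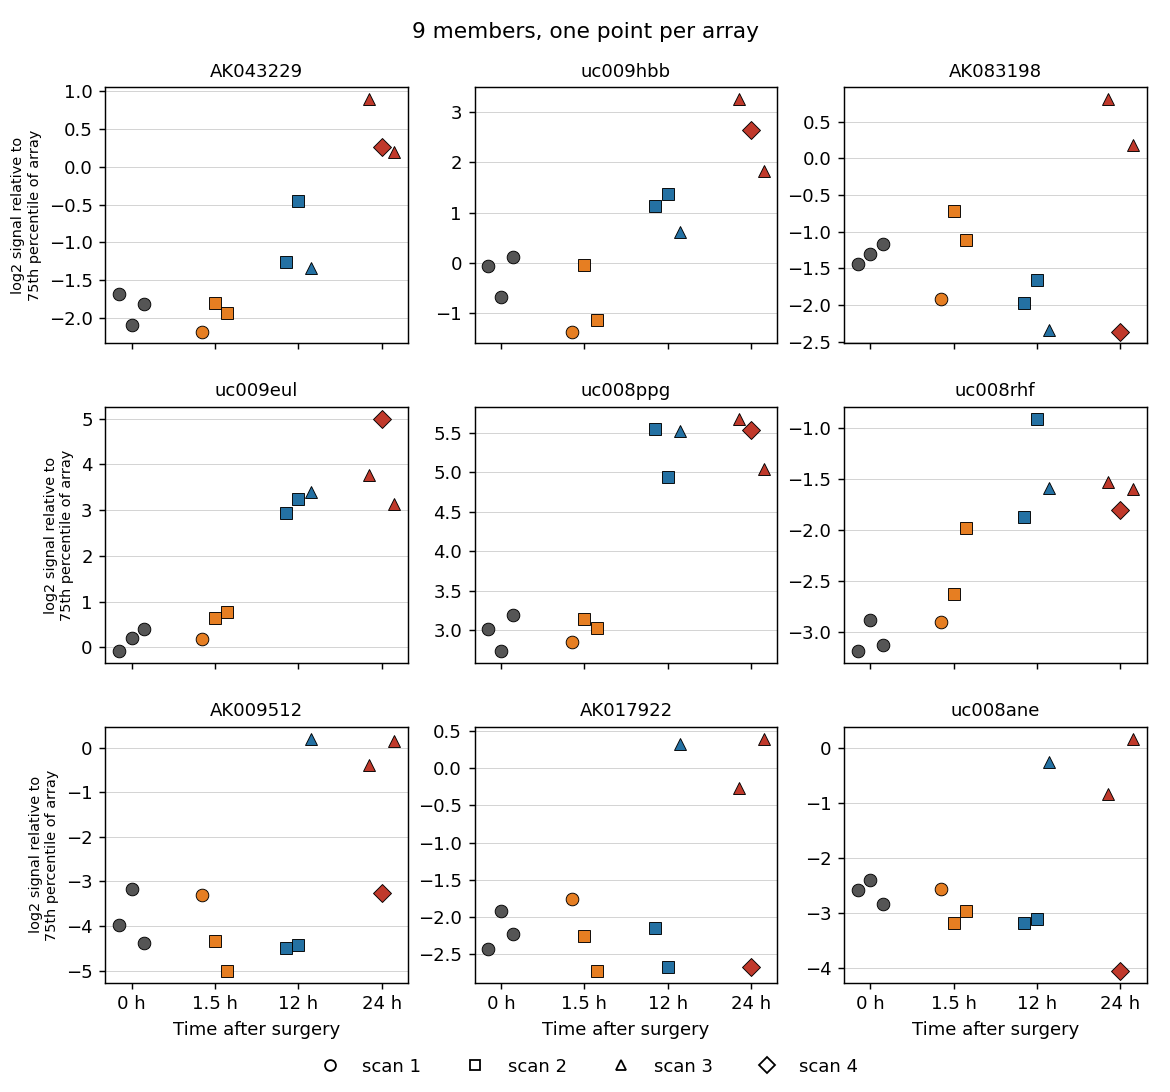
Log2 level (relative to the 75th percentile of the array) of 9 members on each of the 12 arrays by time after surgery; a point is 1 array, its colour the time and its shape the scan, and each panel has its own vertical scale. Members highest at 24 h are in the top line, and members termed level from 12 h in the middle line. Members whose 12 h replicate 3 array stood apart are in the bottom line, where the triangles of the third scan lie together at both times.

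The 36 members termed level from 12 h had median log2 differences from 0 h of 0.44 (1.5 h), 1.41 (12 h) and 1.57 (24 h). Of these, 35 were called at 12 h and 35 at 24 h, and none for 24 h against 12 h. Within the third scan the 24 h mean differed from 12 h replicate 3 by a median of -0.01, from -0.47 to 1.59. In 10 of the 36 both 24 h arrays lay above 12 h replicate 3, and in 10 both lay below it. With scan as a block the median 24 h difference was 0.90, and only uc008mbc was below 0, at -0.20. The rule placed these transcripts at 24 h by the higher of both means in the authors' values.

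The largest rise of this kind was in uc009eul, which lay at -0.09, 0.20 and 0.39 at 0 h and at 0.19, 0.64 and 0.78 at 1.5 h. Its levels were 2.93, 3.25 and 3.40 at 12 h, 3.77 and 3.14 on 24 h replicates 1 and 3, and 5.0 on replicate 2. The 12 h and 24 h arrays overlapped, while all of them lay above the earlier arrays. Relative to 0 h it was higher by 3.03 ± 0.24 at 12 h (8.15-fold) and by 3.29 ± 0.27 at 24 h (9.78-fold), and 2.46 ± 0.51 at 24 h with scan as a block.

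In uc008ppg the step between 1.5 and 12 h was as clear. Its levels were 3.02, 2.73 and 3.19 at 0 h, 2.85, 3.14 and 3.03 at 1.5 h, 5.55, 4.94 and 5.52 at 12 h, and 5.68 and 5.04 on 24 h replicates 1 and 3. Replicate 2 of 24 h lay between these, at 5.54. The difference from 0 h was 2.36 ± 0.24 at 12 h and 2.38 ± 0.27 at 24 h, and 0.02 ± 0.27 between them.

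AK078602 rose from -0.61, -0.31 and -0.94 at 0 h to 0.94, 1.07 and 1.65 at 12 h and to 1.63 and 1.51 on 24 h replicates 1 and 3. At 1.5 h it lay at -0.20, -0.29 and -0.31, at or just above the highest 0 h array. On 24 h replicate 2 it lay at -1.53, below all other arrays.

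Members with nearly equal means at 12 and 24 h included uc008rhf, uc008vvo and uc007hyd, whose 12 h change was 0.999, 0.994 and 0.994 of the 24 h change in the authors' values. For uc008rhf the levels were -3.19, -2.88 and -3.13 at 0 h, -2.90, -2.63 and -1.98 at 1.5 h, -1.87, -0.91 and -1.59 at 12 h, and -1.53 and -1.60 on 24 h replicates 1 and 3. Replicate 2 of 24 h lay at -1.80, also above the 0 h arrays. On the 75th percentile scale the 12 h mean of each of these members was the higher one, with 24 h differences against 12 h of -0.11 ± 0.32, -0.14 ± 0.29 and -0.13 ± 0.31. Their place among transcripts with a largest change at 24 h thus turned on the scale, within the error of the difference.

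uc009bzn was the one member already called at 1.5 h. It lay at 2.21, 2.60 and 3.07 at 0 h, at 4.48, 3.90 and 5.09 at 1.5 h, at 4.10, 4.68 and 4.57 at 12 h, and at 4.44 and 4.63 on 24 h replicates 1 and 3. All later arrays were above all 0 h arrays, and the times from 1.5 h on overlapped. The differences were 1.86 ± 0.32, 1.82 ± 0.32 and 1.91 ± 0.36 at 1.5, 12 and 24 h. Without single arrays the 1.5 h call was lost in most fits, as given with the processing.

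The bright members uc007yxw and uc008fcf are described together, and the second was singled out after its values were seen. For uc007yxw the levels were 3.29, 3.76 and 2.80 at 0 h, and 3.48, 4.77 and 4.77 at 1.5 h, where the low value is the array scanned with the 0 h arrays. They were 4.99, 5.25 and 4.10 at 12 h, where the low value is the array scanned with 24 h, and 5.21 and 5.40 on 24 h replicates 1 and 3. For uc008fcf they were 3.62, 3.87 and 2.97 at 0 h, 3.61, 4.97 and 4.87 at 1.5 h, 5.08, 5.34 and 4.10 at 12 h, and 6.00 and 3.87 on 24 h replicates 1 and 3. On 24 h replicate 2 both were below all 0 h arrays, at 2.11 and 2.21. In both, arrays of the second scan were high whether taken at 1.5 or at 12 h. The highest 0 h array and 24 h replicate 3 of uc008fcf lay at the same level.

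The 20 members whose 12 h replicate 3 array stood apart include 6 of the 12 with the highest change. In them 12 h replicate 3 lay near the 24 h arrays of its scan. The mean of the other 12 h arrays differed from the 0 h mean by -0.63 to 0.93 (median 0.13). In 11 of the 20 neither of these arrays was above all 0 h arrays (21 of all 100 members and 33.1% of all AK and uc0 transcripts). In 4 of the 20 both were. In none of the 20 were both 24 h arrays above 12 h replicate 3 (51 of 100 members and 25.2%), and in 11 both were below it (21 of 100 members and 56.7%). A 12 h replicate 3 level more than 1 log2 unit above the higher of the other 12 h arrays was seen in 17 of the 100 members and in 1.2% of the 5268 AK and uc0 transcripts. Without a scan block 9 of the 20 were called at 24 h and 3 at 12 h against 0 h. With scan as a block the median 24 h difference of the 20 was 0.09, with 7 below 0, and none was called. The 20 were picked by the gap of 12 h replicate 3 over the other 12 h arrays, which the block takes up. These values thus follow in part from the grouping, as do the counts against 12 h replicate 3. The gap lies between arrays of the same time. In it the third scan cannot be told apart from the mouse and array of 12 h replicate 3. For all 100 members, 0 h and 24 h arrays were never read in the same scan.

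AK009512, the member with the highest change of all, was one of them. It lay at -3.97, -3.17 and -4.37 at 0 h, at -3.30, -4.34 and -5.01 at 1.5 h, and at -4.50 and -4.42 on 12 h replicates 1 and 2. It was at 0.20 on 12 h replicate 3 and at -0.39 and 0.15 on 24 h replicates 1 and 3, and at -3.27 on 24 h replicate 2. The arrays of the third scan were thus more than 2 log2 units above each of the others, whatever their time. The 24 h difference against 0 h was 3.72 ± 1.18, and 0.44 ± 0.79 with scan as a block. Despite its size it was called in neither model. Its standard error pools the spread of all times, that of the split 12 h arrays included. The difference was called without 12 h replicate 3, with only the 2 groups compared, with robust moderation, and among probes well above background on all arrays.

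AK017922 showed the same split. Its levels were -2.43, -1.92 and -2.23 at 0 h, -1.76, -2.26 and -2.73 at 1.5 h, -2.15, -2.67 and 0.33 at 12 h, and -0.26, -2.68 and 0.40 at 24 h, in the order of replicates 1 to 3. The 3 high values are those of the third scan. The 24 h difference was 2.26 ± 0.71, and 0.26 ± 0.61 with scan as a block, and was called in neither model.

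In uc008ane the levels were -2.58, -2.41 and -2.83 at 0 h, -2.57, -3.18 and -2.97 at 1.5 h, -3.19, -3.11 and -0.26 at 12 h, and -0.83, -4.06 and 0.17 at 24 h, again by replicate. Outside the third scan it was not raised at 12 h, where the mean of replicates 1 and 2 minus the 0 h mean was -0.54. Its 24 h difference changed from 2.28 ± 0.73 to -0.11 ± 0.61 with scan as a block, and was called in neither model.

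AK048719, uc008qwr and uc009tel differed from these in degree. AK048719 lay at -3.11 and -2.55 on 12 h replicates 1 and 2, at -0.75 on replicate 3, and at -1.30 and -0.35 on 24 h replicates 1 and 3, against -3.07, -2.94 and -3.47 at 0 h. For uc008qwr 12 h replicates 1 and 2, at -2.50 and -2.39, were both above the 0 h arrays (-3.58, -2.90 and -3.65), and replicate 3 was at -0.38, with 24 h replicates 1 and 3 at -1.10 and -0.56. At 1.5 h uc008qwr lay at -2.64, -2.72 and -2.81, so it was above its 0 h levels outside the third scan too.

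uc009tel was the one of the 20 that was high on 24 h replicate 2. It lay at -1.44, -1.29 and -0.94 at 0 h, at 0.89, -0.92 and -0.03 at 1.5 h, and at -0.80, -0.04 and 1.97 at 12 h. On the 24 h arrays it lay at 1.61, 6.10 and 1.80. All arrays from 1.5 h on were above all 0 h arrays, 1.5 h replicate 2 only just, and its 24 h difference of 2.93 ± 0.71 was 1.90 ± 0.69 with scan as a block.

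uc007zgc, the last member inside the limit, lay at 1.02, 0.88 and 2.51 at 12 h and at 1.72 and 2.50 on 24 h replicates 1 and 3, against 1.03, 1.13 and 0.51 at 0 h. The 24 h difference was 1.22 ± 0.45, and -0.23 ± 0.57 with scan as a block, and was called in neither model.

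**Figure D3:**
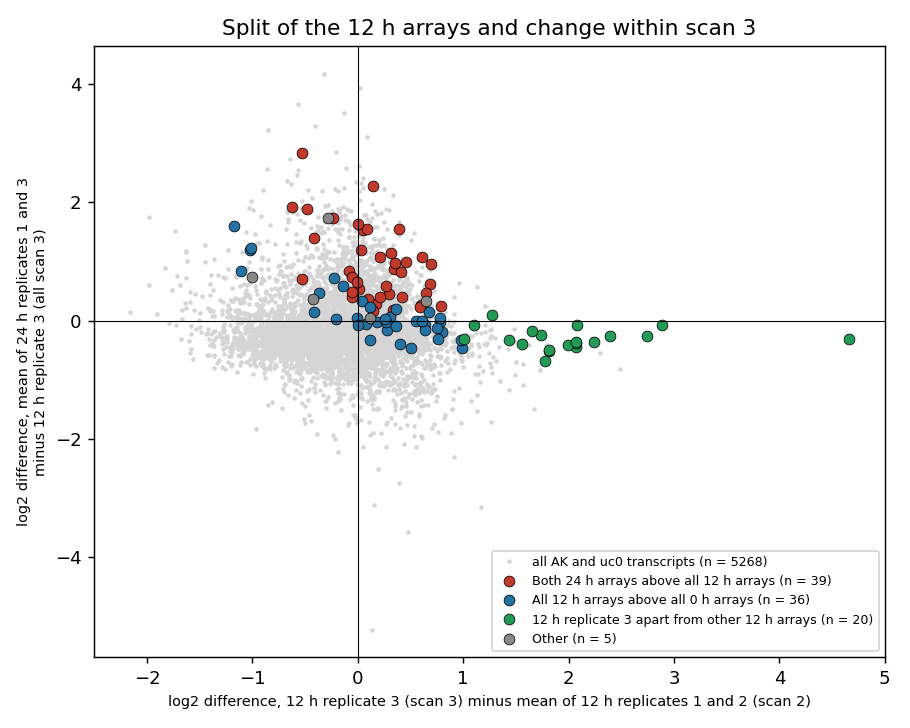
Each point is a transcript: the horizontal axis is the log2 difference of 12 h replicate 3 (the third scan) from the mean of 12 h replicates 1 and 2 (the second scan), the vertical axis that of the mean of 24 h replicates 1 and 3 from 12 h replicate 3 (all of the third scan), for the 100 members in colour and the 5268 AK and uc0 transcripts in grey. The members on the right, in green, range from 1 up to 4.66 on the horizontal axis and lie near or below 0 on the vertical one, and those in red lie above 0.

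The 5 remaining members were uc007axq, uc009bxq, uc007ppd, uc007jgt and AK049715, and 1 of them, uc007axq, was called at 24 h against 0 h. In uc009bxq the 0 h arrays spread from -1.83 to 0.04 and the 24 h arrays used lay at -0.07 and 1.04, so the times overlapped. It and uc008fcf were the 2 members in which the 24 h arrays were not both above all 0 h arrays. In uc007jgt 0 h replicate 1 lay at -1.82, with the others at -0.15 and 0.02, and its 24 h levels of 0.49 and 0.84 were close to those of 12 h at 1.04, 0.00 and 0.63. uc007ppd had its 1.5 and 12 h levels of the second scan, from 3.27 to 3.68, at the height of 24 h replicates 1 and 3 (3.22 and 3.52), and 12 h replicate 3 lower at 2.64.

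Over the 11 arrays the members' log2 levels correlated with each other with a median Pearson r of 0.72, from -0.09 to 0.998 over 4950 pairs. The median was 0.92 among the 20 members with 12 h replicate 3 apart, 0.78 among the 39 highest at 24 h and 0.82 among the 36 level from 12 h. Between the first 2 of these groups it was 0.68. These values share arrays, scans and the rule's own choice of members, and describe likeness in these 11 arrays only.

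Before 24 h the members differed most at 12 h. In the authors' values the 12 h change was below -0.25 of the 24 h change in 4 members, between -0.25 and 0.25 in 19, between 0.25 and 0.75 in 53 and above 0.75 in 24. In those values 46 members were lower at 1.5 h than at 0 h and 11 were lower at 12 h. The rule admits these cases alike, since it asks only that the change be largest at 24 h.

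The 24 h replicate 2 array offers values that the rule did not use, although the 0 h arrays they are compared with did enter it. On it 36 of the 100 members were above all 0 h arrays and 51 were below all of them. Over the 5268 AK and uc0 transcripts these shares were 23.6% and 69.7%. In the authors' values, where this array's median over all probes of the table is close to those of the others, 55 members were above and 28 below, against 29.3% and 59.1% of the AK and uc0 transcripts. The members' median difference from the 0 h mean was -0.34 on the 75th percentile scale and 0.57 in the authors' values, and that of all AK and uc0 transcripts was -1.17 and -0.50. Thus the direction of the members' median turned on the scaling, and 34 members were above all 0 h arrays on both scales.

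By time course, 22 of the 39 members highest at 24 h were above all 0 h arrays on 24 h replicate 2 (27 in the authors' values). So were 12 of the 36 that were level from 12 h (21) and 1 of the 20 with 12 h replicate 3 apart (5). Below all 0 h arrays were 13, 19 and 16 of them (4, 11 and 11 in the authors' values). These shares were not tested against each other. The members lowest on this array were uc007jgt, AK006833, uc007ppd and AK207509. AK207509 lay at -5.81 there, against -2.23 and -2.05 on the other 24 h arrays and -3.83, -3.43 and -3.68 at 0 h. AK006833 lay at -6.21 there, against -2.14 and -2.07 on the other 24 h arrays and -3.62, -3.49 and -3.96 at 0 h. In both, the arrays of 24 h disagreed about the direction of the change from 0 h.

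**Figure D4:**
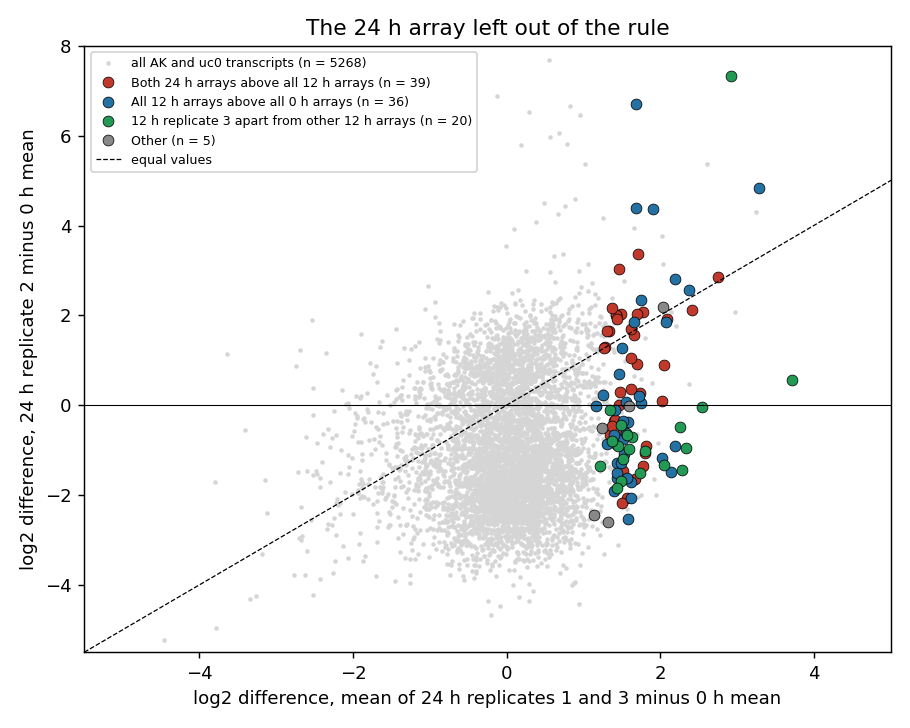
Log2 difference from the 0 h mean on 24 h replicate 2 (vertical) against that of the mean of 24 h replicates 1 and 3 (horizontal), on the 75th percentile scale, for the 100 members in colour and the 5268 AK and uc0 transcripts in grey; the dashed line marks equal values. The members lie to the right of 1 on the horizontal axis by choice and range from -2.60 to 7.32 on the vertical axis, with the transcripts of each colour on both sides of 0.

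Coding genes were ranked by how closely their levels followed the mean standardized course of the members over the same 11 arrays, among 19894 coding probes. The closest with a symbol was Dad1, a subunit of the enzyme that attaches sugar chains to proteins in the endoplasmic reticulum, with Pearson r = 0.988. Others were Large2, a glycosyltransferase (0.979), Spcs1, a subunit of the signal peptidase complex (0.979), and Clptm1l, a membrane protein (0.977). Znrf4 (0.977), Tmem82 (0.975), the ribosomal protein gene Rpl41 (0.974) and Atf6b, a transcription factor held in the membrane of the endoplasmic reticulum (0.970), were also among the 10 closest, as was NM_001033134, which had no symbol (0.990). They were picked for this likeness from many probes, and the correlation rests on 11 arrays that share the same scans.

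Dad1 lay at 4.49, 4.52 and 4.49 at 0 h, at 4.58, 4.57 and 4.70 at 1.5 h, at 4.90, 4.91 and 5.30 at 12 h, and at 5.61 and 5.53 on 24 h replicates 1 and 3, with 5.84 on replicate 2. The times from 12 h on were above the earlier ones, and 12 h replicate 3 was again the highest of its time. Its 24 h difference against 0 h was 1.07 ± 0.18, smaller than that of any member, and 0.62 with scan as a block. Atf6b lay at 1.20, 1.26 and 1.28 at 0 h, at 1.59, 1.71 and 2.39 at 12 h, and at 2.67 and 2.66 on 24 h replicates 1 and 3, but at 1.19 on replicate 2.

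Genes of the cell cycle were measured on the same arrays. Of 29 genes of DNA replication, none was called higher and 5 lower at 24 h against 0 h (limma, all probes 10.3% higher and 6.67% lower), with 2 higher and 14 lower at 12 h (all probes 32.1% and 16.8%). At 24 h against 12 h 10 were higher and 2 lower (all probes 8.59% and 7.12%). Tk1, the thymidine kinase of dividing cells, was lower at 24 h than at 0 h by 2.02 ± 0.35 on the log2 scale (limma adjusted p = 0.00577). With scan as a block its difference was -2.24, which did not pass (adjusted p = 0.317). Its difference was -3.41 ± 0.31 at 12 h against 0 h and 1.39 ± 0.35 at 24 h against 12 h. Of 16 genes of G1 and S entry 3 were higher and 2 lower at 24 h against 0 h, among them E2f8, an E2F family repressor, with 1.83 ± 0.23 (adjusted p = 0.00138) and 1.93 with scan as a block (adjusted p = 0.145). Of 17 mitosis genes 1 was higher and 2 were lower, among them Birc5, which encodes survivin, with -1.86 ± 0.35 (adjusted p = 0.00861) and -2.12 with scan as a block (adjusted p = 0.369). The calls of Tk1, E2f8 and Birc5 were thus all lost with the block, although none of these differences became smaller in size.

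None of 6 measured well-known long noncoding RNAs (Neat1, Malat1, Meg3, Snhg1, Snhg3 and Airn) was called at 24 h against 0 h. At 12 h 3 of them were called higher, where 32.1% of all probes were. Snhg3, a host of small nucleolar RNAs, had differences of 1.76 at 12 h and 0.06 ± 0.23 at 24 h against 0 h. Malat1, an abundant nuclear RNA, had -0.20 at 12 h and -1.39 ± 0.43 at 24 h (limma adjusted p = 0.0505).

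Markers of other cell types moved over the same times. Of 9 neutrophil markers measured, 7 of them well above background on all arrays, 5 were called higher at 24 h and 7 at 12 h against 0 h, where 10.3% and 32.1% of all probes were. Their summed signal, in multiples of each array's 75th percentile, was 1.72 to 2.33 at 0 h, 8.26 to 11.4 at 1.5 h, 31.6 to 40.5 at 12 h, 27.1 to 31.3 on 24 h replicates 1 and 3 and 40.0 on replicate 2. S100a8, a subunit of calprotectin, rose 28.9-fold at 24 h (4.85 ± 0.28, limma adjusted p = 3.7e-05), and kept its call with scan as a block (4.91, adjusted p = 0.0329). Of 6 adipose markers, 3 of them well above background on all arrays, 4 were called higher at 24 h. Their sum was 0.61 to 0.92 at 0 h, 17.0 to 21.0 at 12 h and 5.33 to 10.9 on 24 h replicates 1 and 3, with 54.7 on replicate 2. Most of it at 12 h and on 24 h replicate 2 came from Cidec, at 3.66, 3.91 and 4.20 at 12 h and 5.65 on that array. Cfd rose 19.9-fold (4.32 ± 0.83, limma adjusted p = 0.00904) and kept its call with scan as a block (8.49, adjusted p = 0.0318). Its level on 12 h replicate 3 was -5.06, against -2.36 and -2.55 on the other 12 h arrays. Fabp4, a fatty acid binding protein, rose 10.7-fold (3.42 ± 0.33, limma adjusted p = 0.000361, and 3.51 with scan as a block, where the call was lost at adjusted p = 0.135), while Adipoq, the adipocyte hormone adiponectin, had -0.16 ± 0.35. The part of these cells in the members' levels was not tested.

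Of 9 macrophage markers 1 was called higher at 24 h against 0 h (all probes 10.3%). At 12 h against 0 h 1 was higher and 4 were lower (all probes 32.1% and 16.8%). For 24 h against 12 h 4 were called higher (all probes 8.59%). Their sum was 35.3 to 59.4 at 0 h, 34.0 to 53.4 at 12 h and 58.1 to 87.8 on 24 h replicates 1 and 3. Marco, a scavenger receptor, rose 7.30-fold (2.87 ± 0.55, limma adjusted p = 0.00856), and its call was lost with scan as a block (3.19, adjusted p = 0.266). Clec4f, a marker of Kupffer cells, had a difference of -0.08 ± 0.22. The median 24 h difference against 0 h over the 9 macrophage markers was 0.57. Hepatocyte markers, the check of the tissue label, were well above background on all arrays for 9 of 10 genes, and their sum was 1586 to 1675 at 0 h, 1643 to 2543 at 1.5 h, 1860 to 2989 at 12 h and 1598 to 1607 on 24 h replicates 1 and 3. On 24 h replicate 2 their sum was 812.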

How the data were processed

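RNA of 12 livers was measured on 1-colour Agilent lncRNA arrays. The scanner software, Agilent Feature Extraction 10.5.1.1 per the file headers, gave each spot a processed intensity, corrected within its array for background and spatial trend. It also gave median spot and background intensities and other values, the 0 or 1 quality marks. The authors also deposited log2 values of 20271 probes. The columns of this table have close to equal quantiles (medians from 8.91 to 8.94), and the normalization is not given in the sources used here. They follow the log2 intensities with r from 0.993 to 0.99997, are not centred by gene, and served to choose the members. The members, gene lists and comparisons were chosen with earlier results of these data known.

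Outlier spots were dropped, spots of a probe averaged, and log2 intensity scaled on the 75th percentile of each array. Probes well above background on at least 3 arrays were kept (31168 of 37246). A limma 3.58.1 model in R 4.3.3 with 1 mean per time was fitted to 11 arrays, without 24 h replicate 2, and p-values, two-sided, were adjusted by Benjamini-Hochberg. It was tested on simulated data. Errors after ± are standard errors of that model. They measure the spread between arrays, pooled over time points, and 3 arrays per time point, or 2 at 24 h, limit the precision.

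Named were the 12 members with the highest change, the 3 inside and 3 outside the limit, the 4 with the highest and 4 with the lowest ratio of the 12 h to the 24 h change, the 4 highest and the 4 lowest on 24 h replicate 2, and the 4 brightest. Added to these were the 10 coding genes most like the members, 1 of which is not reported here, and called members of lists. AK009498, uc008fcf, uc008mbc, uc007axq, uc009bxq, AK049715, the well-known noncoding RNAs without a call and the markers Adipoq and Clec4f were named after their values were seen. Lists covered DNA replication, G1 and S entry, mitosis, well-known long noncoding RNAs and markers of 10 cell types. The alternatives tried were 12 arrays, normexp (offset 50), quantile normalization, the authors' values, other filters, robust moderation, replicate or scan as a block, fits to the compared groups alone, and single arrays left out in turn.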

Additional observations from a re-analysis of the deposited data

Results flagged for a closer look

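The array that the comparisons left out, 24 h replicate 2, held signals of 4 members far above both other 24 h arrays, by more than 2 log2 units on the 75th percentile scale and in the authors' values. AK089870 lay at 6.69 there, against 1.63 and 1.70 on 24 h replicates 1 and 3 and -0.33, -0.15 and 0.44 at 0 h. It exceeded the higher of the other 24 h arrays by 4.99, and by 6.13 in the authors' values. For uc009tel the excess was 4.31 (4.10 in the authors' values), with a level of 6.10.

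AK138242 lay at 0.97 on that array, against -1.80 and -1.66 on the other 24 h arrays and -3.38, -3.24 and -3.63 at 0 h. Its excess was 2.63 (2.52 in the authors' values). For uc009bzn the level was 7.0, against 4.44 and 4.63, and the excess was 2.37 (4.40 in the authors' values). All 4 members were above all 0 h arrays on each 24 h array, so the arrays of that time differed in the size of the rise and not in its direction. The part of the array's brightness, its scan or the animal was not tested. No group held more than 3 arrays, so no array was tested as an outlier within its group.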

How the results depend on the processing

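The 84 members called at 24 h against 0 h became 32 with all 12 arrays, 14 with normexp and 1 with scan as a block, and ranged from 33 (without 24 h replicate 3) to 96 when single arrays were left out, with 51 without 24 h replicate 1. A time point left with 1 array is assumed to vary like the others. The 62 called at 12 h became 16 with 12 arrays, 35 with normexp and 7 with the scan block (43 to 64 without single arrays). The 1 called at 1.5 h became 0 with 12 arrays, normexp, no filter, the replicate block, the scan block or only the groups compared, and was 0 to 17 without single arrays, with 17 without 1.5 h replicate 1. The 20 called for 24 h against 12 h became 11 with 12 arrays, 4 with normexp, 10 with the scan block and 10 with only the groups compared. They ranged from 2 (without 24 h replicate 1) to 40 (without 12 h replicate 3), with 13 without 24 h replicate 3. The median 24 h difference of 1.57 was 0.94 with 12 arrays, 1.16 with normexp and 0.92 with the scan block (1.50 to 1.69 without single arrays). The 36 members above all 0 h arrays on 24 h replicate 2 were 55 in the authors' values and 62 with each array scaled on its median (36 to 44 without single arrays). The rule found 64 of the 100 members on normexp values, 46 with the 24 h mean over all 3 arrays, and 73 to 100 without single arrays. Of 30 named members 13 lost their call with 12 arrays, 19 with normexp, 24 with scan as a block, 12 without 24 h replicate 1 and 14 without 24 h replicate 3. With scan as a block the differences of uc008ane and uc007zgc turned to -0.11 and -0.23, while that of uc007ppd turned to -0.054 with 12 arrays. Quantile normalization and the authors' values changed the call of 1 named member each. Without 12 h replicate 3, where 96 members were called at 24 h against 0 h, 5 named members gained a call, as did 5 with only the groups compared. With the replicate block 78 members were called at 24 h against 0 h and 1 named member lost its call. Deviations of arrays with the same number correlated at -0.28 to 0.21, so the numbers were not taken to pair arrays. Where a count moved, the cause was not tested beyond the fewer arrays that some settings hold.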

Other observations

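Markers of other cells of the liver moved in part. Of 10 endothelial markers 2 were called higher at 24 h against 0 h (limma, where 10.3% of all probes were called higher and 6.67% lower). Lyve1, a hyaluronan receptor of sinusoidal and lymphatic endothelium, rose 4.98-fold (2.32 ± 0.39, adjusted p = 0.00535), and 3.02 on the log2 scale with scan as a block. Of 10 stellate cell and matrix markers 2 were higher and 1 was lower: Rgs5, a regulator of G protein signalling in pericytes, fell by 2.60 ± 0.58 on the log2 scale at 24 h (adjusted p = 0.0153), against -1.12 with scan as a block. Of 6 bile duct markers 2 were higher, with Sox9, a transcription factor of duct cells, at 1.72 ± 0.27 (adjusted p = 0.00365) and 1.25 with scan as a block. Of 8 lymphocyte markers 1, the B cell receptor subunit Cd79b, was lower, with -1.20 ± 0.26 (adjusted p = 0.0134).

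Of 10 hepatocyte markers Fgb, a fibrinogen chain of the acute phase response, rose 3.36-fold (1.75 ± 0.28, limma adjusted p = 0.00428) and Ttr, the thyroxine carrier transthyretin, fell by 1.99 ± 0.28 on the log2 scale (adjusted p = 0.00259). The other measured markers of that list did not pass the threshold at 24 h. Of 4 erythroid markers 1 was higher, Slc4a1, the anion exchanger of red cells, with 1.71 ± 0.30 (limma adjusted p = 0.00598). Of 10 pancreas markers, listed as genes that liver tissue should lack, 7 were well above background on all arrays. The list therefore gave no check on absent genes. Of the 10, 1 was higher (Cpb1, 1.75 ± 0.41) and 1 was lower (Cela2a, -2.20 ± 0.61). With scan as a block none of the genes named here kept an adjusted p under 0.05.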
